A study of Musa acuminata AAA Group with 4 samples.

Results

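Glutamine synthetase (GS) and glutamate synthase (GOGAT) form the cycle through which plants turn ammonium into amino acids. The levels of 3 banana genes of this cycle were compared across leaf and root under low and normal nitrogen: Ma01_g15700, Ma09_g16600 and Ma07_g25920. They are 3 of the 31873 genes with a value in any library, were listed by gene ID, and were selected on their FPKM and expected counts in these 4 libraries. Their best BLAST matches, as given in the authors' deposited tables, were a nodule-type GS isozyme, a chloroplast GS leaf isozyme and NADH-dependent glutamate synthase 1. The plants were Cavendish banana (Musa acuminata, AAA Group), held in clean sand and sampled after 60 days. The groups were low-N leaf and normal-N leaf, then low-N root and normal-N root, where low N means a low-nitrogen solution and normal N a complete Hoagland solution. Per the series' design text, the leaf samples were the whole aboveground part, pseudostem included. Each group had 1 library, so no difference here has a replicate check, no test was run, and the levels are a description of 4 libraries.

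GS joins ammonium to glutamate to make glutamine, and GOGAT passes the amide nitrogen of glutamine to 2-oxoglutarate, which returns glutamate. Plants hold cytosolic GS forms, known for primary assimilation in roots and for nitrogen transport, and a plastid form, known in leaves for recapturing the ammonium that photorespiration releases. GOGAT comes in a ferredoxin-dependent form, prominent in green leaves, and an NADH-dependent form, prominent in roots and other non-green tissue. No described gene was named a ferredoxin-dependent glutamate synthase, so that enzyme is not analysed here.

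Levels are FPKM, the deposited fragment number per kilobase, adjusted for library size, which can be compared between genes because they are per length. Folds are ratios of the deposited expected counts (estimated fragments per gene) scaled by library totals. The intervals are exact 95% intervals and cover counting error only. They take the rounded expected counts as observed, so error in dividing fragments that fit more than 1 gene is left out. Summed over genes, the expected fragments came to between 4144048 and 4408992 per library. Tissue labels were checked against marker genes. The 26 described genes for RuBisCO small chain, chlorophyll a-b binding, photosystem I and oxygen-evolving proteins summed to 23009 FPKM in low-N leaf and 55642 FPKM in normal-N leaf, against 191 FPKM in low-N root and 324 FPKM in normal-N root. RuBisCO small chain gene Ma02_g24600 alone gave 19671 FPKM in low-N leaf and 47042 FPKM in normal-N leaf. Another, Ma07_g15870, went the other way. It was at 0.95 FPKM in low-N leaf and 1.89 FPKM in normal-N leaf, against 81.55 FPKM in low-N root and 224 FPKM in normal-N root. At a log2 change of (FPKM + 1) of at least 1, 24 of the 26 were higher in leaf than in root under low N and 2 lower. Under normal N, 25 were higher and 1 lower. Over all genes, 22.8% were higher in leaf under low N and 20.1% under normal N. The 23 described secondary-wall genes (cellulose synthase A, laccase, COBRA-like, fasciclin-like) summed to 81.6 FPKM in low-N leaf and 76.6 FPKM in normal-N leaf, and to 1708 FPKM in low-N root and 1579 FPKM in normal-N root. The 16 described root markers summed to 189 FPKM in low-N leaf and 51.2 FPKM in normal-N leaf, against 382 FPKM in low-N root and 803 FPKM in normal-N root. A nitrate transporter (Ma04_g06400) alone gave 119 FPKM of the low-N leaf sum and 18.4 FPKM of the normal-N leaf sum, against 7.57 FPKM in low-N root and 5.10 FPKM in normal-N root, so it did not mark root in these libraries. At the same log2 limit, with 2 FPKM or more in the higher library, 10 of 15 root markers were lower in leaf under low N and 2 higher. The other higher 1 was the CASP-like Ma04_g07790, at 9.54 FPKM in low-N leaf against 1.88 FPKM in low-N root. Under normal N, 14 of 16 were lower in leaf and 1 higher. Over all genes, 37.1% were lower in leaf under low N and 42.2% under normal N. Of the photosynthetic genes 0 were at 0 in leaf, and 7 in low-N root and 6 in normal-N root were. Of the root markers 3 were at 0 in low-N leaf and 5 in normal-N leaf. All 3 marker lists are limited to genes that passed the authors' own filter for a nitrogen difference.

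In outline, the nodule-type GS was mainly a root transcript that was 9.82-fold lower in low-N root. In leaf it had few fragments and a ratio of low N to normal N of 0.88. The interval of that ratio holds 1 (0.48 to 1.63). Its counts appear to be divided with Ma08_g31320. The sum of both genes was 5.50-fold lower in root (4.96 to 6.11) and 1.99-fold lower in leaf (1.43 to 2.80). Most of that leaf sum lay with Ma08_g31320. The chloroplast leaf isozyme and NADH-GOGAT were lower in both tissues under low N. The leaf isozyme was 3.48-fold lower in leaf and 4.42-fold lower in root alone, and 1.48-fold lower in leaf and 3.46-fold lower in root when summed with Ma03_g08980, its inferred partner. Called by size, at a log2 change of (FPKM + 1) of at least 1 with 2 FPKM or more in whichever library was higher, 2 of 3 genes were lower in low-N leaf, where 6.7% of 21715 genes were. In low-N root 3 of 3 were lower, where 6.9% of 24476 genes were. These contrasts were used to pick the genes, so nothing is read from those counts.

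The expected counts of both GS genes were not whole numbers in any library, as can happen where fragments fit more than 1 gene and are divided between them. The counting tool is not given in the sources used here, so the pairing below is an inference from the counts alone. For Ma01_g15700, 1 of 2720 other genes with non-whole counts in all 4 libraries gave whole sums with it in every library, within 0.035 fragments. That gene was Ma08_g31320, described as a cytosolic GS isozyme 2 and, like Ma01_g15700, 1074 bases long. Their sums were 55 fragments in low-N leaf, 110 in normal-N leaf, 428 in low-N root and 2344 in normal-N root.

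For Ma09_g16600 the same search also returned 1 gene, Ma03_g08980, which has no description in the files. It is 1302 bases long, against 1287 for Ma09_g16600. Their sums were 9654 fragments in low-N leaf, 14407 in normal-N leaf, 108 in low-N root and 372 in normal-N root. In leaf nearly all of these lay with the undescribed gene: Ma09_g16600 held 1.36% of the pair's count in low-N leaf and 3.21% in normal-N leaf. In root it held most of them, 73.6% in low-N root and 93.5% in normal-N root. No rule for dividing fragments is given in the sources used here either, so each GS value is given both alone and summed with its inferred partner. No such partner was found for Ma07_g25920, whose counts were also not whole.

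**Figure D1:**
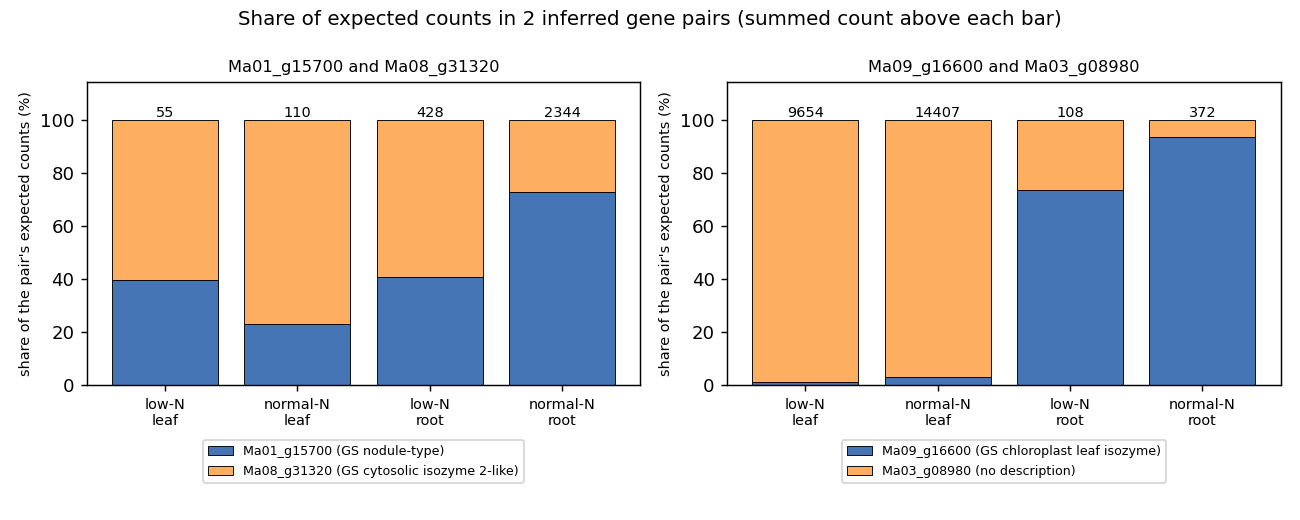
Share of each pair's expected counts (vertical axis, %) given to the GS gene of interest (blue) and to the gene that completes its count (orange), by library, with the summed count above each bar. Ma09_g16600 holds 1.36% and 3.21% of its pair in the 2 leaf libraries but 73.6% and 93.5% in the 2 root libraries.

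The nodule-type GS, Ma01_g15700, is named after the isozyme of legume nodules. In leaf it stood at 4.92 FPKM under low N and 5.64 FPKM under normal N, and in root at 36.7 FPKM under low N and 360 FPKM under normal N. Normal-N root was thus far above the other libraries, low-N root was next, and the leaf libraries had the lowest levels, with counting intervals that overlap (3.11 to 7.52 FPKM in low-N leaf, 3.62 to 8.26 FPKM in normal-N leaf). In normal-N root it ranked 328 of 29158 detected genes by FPKM, and in low-N root 5315 of 29130.

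In root the count of Ma01_g15700 was 9.82-fold lower under low N (8.40 to 11.5). In leaf the ratio of low N to normal N was 0.88 (0.48 to 1.63), from 21.8 and 25.2 fragments, so a difference inside that range was not detectable at this depth. Leaf was 7.43-fold lower than root under low N (4.76 to 12.2) and 64.6-fold lower under normal N (43.6 to 100.1). The root ratio of low N to normal N was 0.115 of the leaf ratio (0.061 to 0.22).

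Summed with Ma08_g31320, which would remove any division between the pair, the root count was 5.50-fold lower under low N (4.96 to 6.11). The leaf sum was 1.99-fold lower (1.43 to 2.80). The sum in leaf was 20.2-fold below root under normal N (16.7 to 24.7) and 7.31-fold below under low N (5.51 to 9.87). The summed root ratio was 0.36 of the summed leaf ratio (0.26 to 0.52). On either basis the root level was lower under low N, with a smaller fold for the sum. Ma01_g15700 held 39.6% of the pair's count in low-N leaf and 22.9% in normal-N leaf. In root it held 40.6% under low N and 72.6% under normal N. The summed folds therefore mix the 2 genes in unlike parts.

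Ma08_g31320 itself, named here after its values were seen, stood at 7.49 FPKM in low-N leaf and 19.0 FPKM in normal-N leaf, and at 53.7 FPKM in low-N root and 136 FPKM in normal-N root. It was lower under low N in both tissues, 2.56-fold in leaf (1.70 to 3.96) and 2.53-fold in root (2.19 to 2.94). In normal-N root the nodule-type gene was the higher of the pair, and in the other 3 libraries Ma08_g31320 was.

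The chloroplast leaf isozyme, Ma09_g16600, stood at 24.7 FPKM in low-N leaf and 85.9 FPKM in normal-N leaf. In root it stood at 13.9 FPKM under low N and 61.1 FPKM under normal N. Both low-N libraries were below both normal-N libraries, so the order of its levels alone followed nitrogen before tissue. Summed with Ma03_g08980, the FPKM was 1786 in low-N leaf and 2647 in normal-N leaf, against 18.9 in low-N root and 65.2 in normal-N root. The order of the sum followed tissue before nitrogen. The count of Ma09_g16600 alone was 3.48-fold lower under low N in leaf (2.86 to 4.26) and 4.42-fold lower in root (3.45 to 5.72). The root ratio was 0.79 of the leaf ratio, with an interval that holds 1 (0.57 to 1.09). Leaf exceeded root by 1.78-fold under low N (1.34 to 2.38) and by 1.40-fold under normal N (1.22 to 1.61). With median-ratio and upper-quartile scaling the low-N ratio was 2.08 and 2.09. These leaf levels rest on the small share of the pair's leaf count that Ma09_g16600 held, 1.36% and 3.21%.

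Ma03_g08980, the undescribed gene inferred to share fragments with it, was at 1761 FPKM in low-N leaf and 2561 FPKM in normal-N leaf, against 4.94 FPKM in low-N root and 4.18 FPKM in normal-N root. It was 349-fold higher in leaf than in root under low N (243 to 522) and 613-fold higher under normal N (412 to 957). Its leaf count was 1.46-fold lower under low N (1.42 to 1.50). In root its ratio of low N to normal N was 1.20, with an interval that holds 1 (0.68 to 2.16). It is in neither of the authors' deposited tables, which keep only log2 ratios of at least 1 in size.

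Summed over this pair, the leaf count was 1.48-fold lower under low N (1.45 to 1.52), a smaller difference than the 3.48-fold of Ma09_g16600 alone. The root sum was 3.46-fold lower (2.78 to 4.32). The summed root ratio was 0.43 of the summed leaf ratio (0.34 to 0.53), an interval below 1. The leaf sum was nearly all Ma03_g08980 and the root sum mostly Ma09_g16600, so the 2 summed folds largely describe different genes. Neither gene alone had an interval below 1 for a larger fall in root. Ma09_g16600 alone had a root ratio at 0.79 of its leaf ratio (0.57 to 1.09). Ma03_g08980 alone had a ratio of 1.20 in root and 0.69 in leaf. Leaf exceeded root 95.1-fold under low N (78.7 to 116) and 40.9-fold under normal N (36.9 to 45.4) on the sum. The photosynthetic marker genes were lower in low-N leaf by size too, 24 of the 25 with 2 FPKM or more in the higher leaf library. Over all genes 6.7% were lower. Of the 26 listed, 24 came from the authors' leaf table of changed genes, so that count was largely set by the selection. The part of green tissue in the leaf values of Ma09_g16600 and Ma03_g08980 was not tested. In whole tissue, fewer green cells and less RNA per cell cannot be told apart.

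NADH-dependent glutamate synthase 1, Ma07_g25920, was at 22.7 FPKM in low-N leaf and 47.6 FPKM in normal-N leaf. In root it was at 49.8 FPKM under low N and 115 FPKM under normal N. Normal-N root was highest and low-N leaf lowest, while low-N root and normal-N leaf had overlapping counting intervals (47.2 to 52.5 FPKM and 45.0 to 50.4 FPKM). The gene had the most fragments of the set, 567 to 3100 per library, and so the narrowest intervals. Its count was 2.11-fold lower under low N in leaf (1.90 to 2.33) and 2.33-fold lower in root (2.18 to 2.49). The root ratio was 0.90 of the leaf ratio (0.80 to 1.02). Leaf was below root by 2.21-fold under low N (2.00 to 2.45) and by 2.45-fold under normal N (2.29 to 2.62).

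The other described NADH-GOGAT, Ma08_g28590, was barely detected in leaf, with 2 fragments in low-N leaf and 1 in normal-N leaf. In root it was at 3.27 FPKM under low N and 31.7 FPKM under normal N, 9.69-fold lower under low N (7.86 to 12.1). Ma07_g25920 made up 93.8% of the summed FPKM of the pair in low-N root and 78.3% in normal-N root. Like Ma08_g31320, this gene was named after its values were seen.

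**Figure D2:**
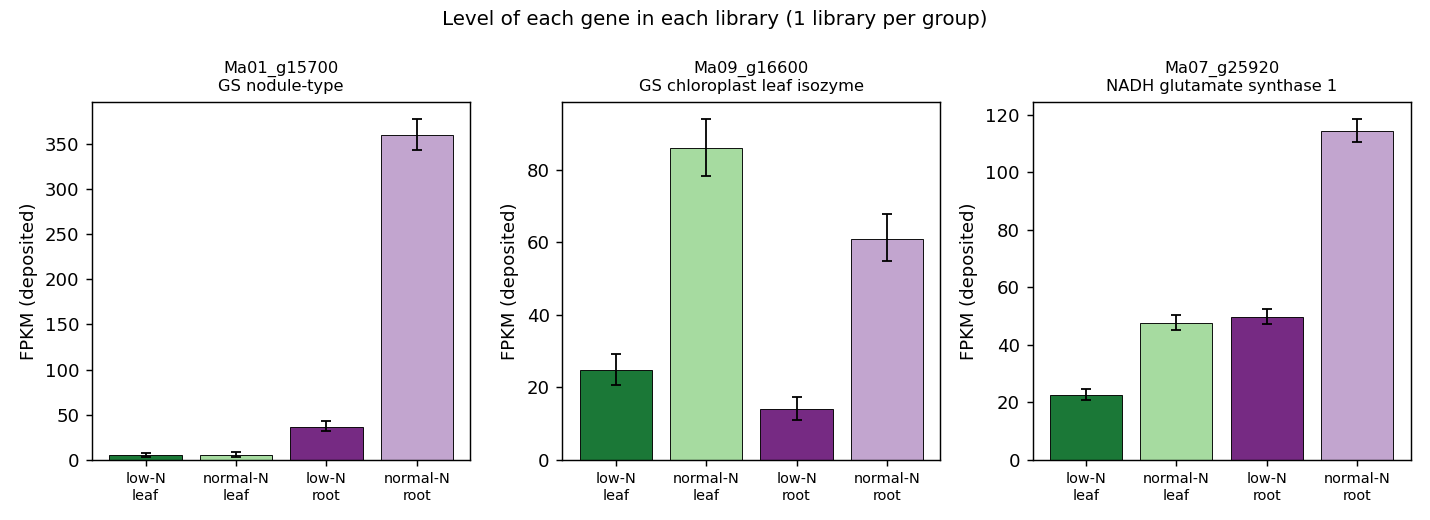
Deposited FPKM (vertical axis, linear, a scale of its own in each panel) of the 3 genes in the 4 libraries; error bars are exact 95% Poisson intervals of the count. Ma01_g15700 stands out in normal-N root at 360 FPKM, Ma09_g16600 is higher in both normal-N libraries, and Ma07_g25920 is highest in normal-N root at 115 FPKM.

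**Figure D3:**
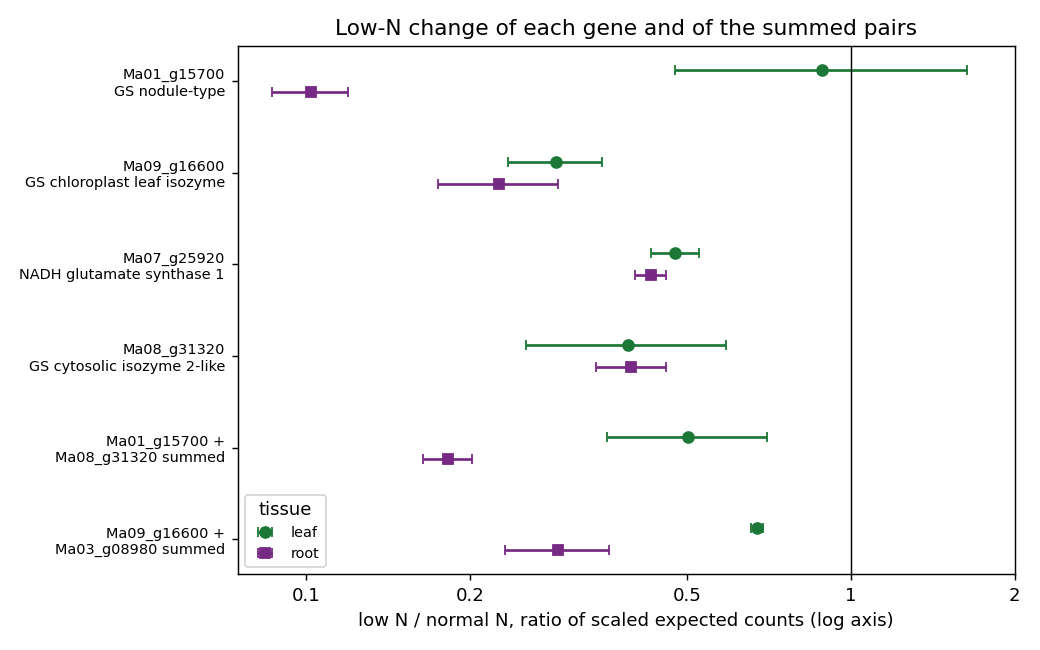
Ratio of low N to normal N in scaled expected counts (horizontal log axis; 1 means equal) in leaf (circles) and root (squares), with exact 95% counting intervals, for the 3 genes, Ma08_g31320 and the 2 summed pairs. The leaf ratio of Ma01_g15700 spans 1, and that of the Ma09_g16600 pair moves to 0.67 from 0.29 for Ma09_g16600 alone.

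Among each other, the GS genes were unlike in pattern. Between the 2 GS genes of interest, Ma09_g16600 held 83.4% of the summed FPKM in low-N leaf (76.0 to 89.2) and 93.8% in normal-N leaf (91.2 to 96.0). It held 27.5% in low-N root (22.3 to 33.2) and 14.5% in normal-N root (13.2 to 16.1). With each gene summed with its inferred partner, the Ma09_g16600 pair's share of the 4 genes' FPKM was 99.3% in low-N leaf and 99.1% in normal-N leaf, and 17.3% in low-N root and 11.6% in normal-N root. That pair thus held nearly all of the 4 genes' FPKM in leaf and the smaller part in root. Because Ma03_g08980 is not described, whether its share is GS is not given by the files.

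The whole transcriptome gives the setting. By size, low-N leaf had 11.7% of genes above normal-N leaf and 6.7% below it, with a median log2 change of 0.12. Low-N root had 4.67% above normal-N root and 6.9% below it, with a median of -0.0052. Leaf over root, 22.8% were higher and 37.1% lower under low N, and 20.1% higher and 42.2% lower under normal N. Of the 3 genes, each taken alone, 2 were lower in leaf than in root by size under each solution, and Ma09_g16600 was not called. With median-ratio scaling the median of all genes in leaf was -0.09, a shift of the reference level for all genes, and the share of called genes that were higher was 46.5%, against 63.6% with library totals. In leaf over root under normal N that share was 44.9% and 32.3%.

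The neighbouring steps of nitrogen metabolism were read from lists of described genes. Descriptions come only from the authors' deposited tables, so every list holds genes already picked for change in leaf or root, and the counts below were largely set by that selection. In the GS and GOGAT list, 3 of the 4 genes at the filter were lower in leaf (median log2 change -1.14), where 6.7% of all genes were. In root 5 of 5 were lower (median -2.06), where 6.9% of all genes were. Of the 5 genes in this list, 3 are the genes of interest, which were picked on these values. Nothing is therefore read from its counts and medians. The nitrate reduction list, which makes the nitrite and ammonium that GS draws on, also caught a ferredoxin-dependent sulfite reductase of sulfur assimilation. It had 3 of 11 genes lower and 0 higher in leaf (median -0.22), where 6.7% of all genes were lower and 11.7% higher. In root 9 of 10 were lower and 0 higher (median -2.54), where 6.9% of all genes were lower and 4.67% higher. The 3 lower in leaf were the sulfite reductase, a ferredoxin and a leaf-type ferredoxin-NADP reductase, and none was a nitrate or nitrite reductase. Nitrate reductase (Ma09_g14900), the entry step, was at 906 FPKM in low-N leaf and 1052 FPKM in normal-N leaf, and at 17.9 FPKM in low-N root and 314 FPKM in normal-N root. A second nitrate reductase (Ma03_g07170), named here after its values were seen, was at 31.9 FPKM in low-N leaf and 15.7 FPKM in normal-N leaf. Its leaf count was 2.03-fold higher under low N (1.69 to 2.44), with a log2 change of 0.98, just short of the size limit. In root it was at 0.42 FPKM under low N and 9.33 FPKM under normal N. A ferredoxin (Ma01_g23400), an electron donor, was at 317 FPKM in low-N leaf and 716 FPKM in normal-N leaf, with at most 7.32 FPKM in root.

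Enzymes that use glutamate numbered 3, and all 3 were lower in root (median -1.48), while 1 of the 2 at the filter was lower in leaf. Over all genes 6.9% were lower in root and 6.7% in leaf. All 3 came from the authors' root table of changed genes, which largely set the root count. Alanine aminotransferase 2 (Ma11_g08770), which moves the amino group of glutamate to pyruvate, was at 9.01 FPKM in low-N leaf and 24.1 FPKM in normal-N leaf, 2.68-fold lower (1.98 to 3.68). In root it was at 39.7 FPKM under low N and 112 FPKM under normal N, 2.84-fold lower (2.47 to 3.27). Its relative Ma02_g09230 was at 5.08 FPKM in low-N leaf and 7.65 FPKM in normal-N leaf, and at 49.5 FPKM in low-N root and 105 FPKM in normal-N root.

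Photorespiration, the source of ammonium for plastid GS in leaves, had 4 of 5 genes lower and 0 higher in low-N leaf (median -1.33). Over all genes 6.7% were lower there, and 4 of the 5 came from the authors' leaf table of changed genes, which largely set that count. Serine hydroxymethyltransferase (Ma07_g28730) was at 392 FPKM in low-N leaf and 985 FPKM in normal-N leaf, 2.52-fold lower (2.41 to 2.64), and at under 2 FPKM in both roots. Aminomethyltransferase (Ma06_g21100), a part of the glycine cleavage system, was at 219 FPKM in low-N leaf and 550 FPKM in normal-N leaf, 2.52-fold lower (2.35 to 2.70). In root it was at 17.3 FPKM under low N and 17.8 FPKM under normal N. Both leaf folds lay between that of Ma09_g16600 alone and that of its pair with Ma03_g08980. Both genes are in the authors' leaf table, which keeps only log2 ratios of at least 1 in size. A fold larger than the pair's 1.48 was therefore set by that selection, and nothing is read from this order.

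Genes of carbon skeleton and reductant supply, which feed 2-oxoglutarate and electrons to the cycle, had 4 of 8 lower and 0 higher in leaf (median -1.001), and 3 of 8 lower and 0 higher in root (median -0.54). Over all genes 6.7% were lower in leaf and 6.9% in root. Of the 8 genes, 5 came from the authors' leaf table of changed genes and 3 from the root table, which largely set these counts. A phosphoenolpyruvate carboxylase (Ma09_g06240), which refills the citric acid cycle, was at 26.0 FPKM in low-N leaf and 25.2 FPKM in normal-N leaf, and in root at 73.2 FPKM under low N and 171 FPKM under normal N, 2.34-fold lower (2.17 to 2.53). ATP-citrate synthase (Ma08_g06070), which splits citrate for lipid synthesis and was caught by its name, was at 9.66 FPKM in low-N leaf and 31.5 FPKM in normal-N leaf, and at 202 FPKM in low-N root and 180 FPKM in normal-N root.

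The list of ammonium release and uptake had 7 of 9 genes higher and 0 lower in leaf (median 1.45), where 11.7% of all genes were higher and 6.7% lower. Of its 10 genes 7 came from the authors' leaf table of changed genes, so no direction of the group is read from that count. In root 3 of 10 were higher and 2 lower (median 0.32), where 4.67% of all genes were higher and 6.9% lower. Of the 10 genes, 5 came from the authors' root table of changed genes. Phenylalanine ammonia-lyase (Ma01_g04420), which frees ammonium on the way to phenylpropanoids, was at 611 FPKM in low-N leaf and 260 FPKM in normal-N leaf, 2.34-fold higher (2.23 to 2.46). In root it was at 81.0 FPKM under low N and 91.3 FPKM under normal N. An asparaginase (Ma08_g19880), which frees ammonium from asparagine, was at 84.4 FPKM in low-N leaf and 18.8 FPKM in normal-N leaf, and at 137 FPKM in low-N root and 116 FPKM in normal-N root.

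**Figure D4:**
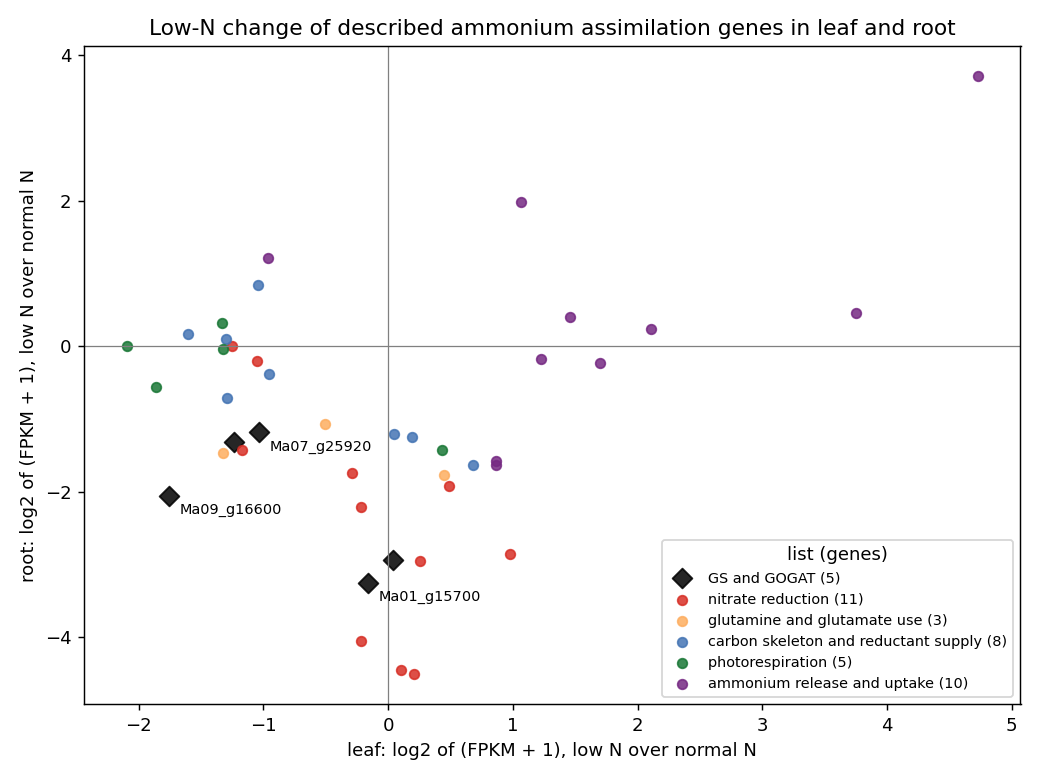
Log2 change of (FPKM + 1), low N over normal N, in leaf (horizontal axis) and root (vertical axis) for the described genes of 6 lists; each point is a gene, diamonds are GS and GOGAT genes, and the 3 genes of interest carry their IDs. Ma09_g16600 and Ma07_g25920 are lower in both tissues, and Ma01_g15700 is at -0.17 in leaf and -3.26 in root.

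The described genes with the most similar profiles were found over the 4 libraries by the distance between centred log2 (FPKM + 1) profiles, among 2381 genes with at least 10 FPKM in some library. Closest to Ma01_g15700 were early nodulin-93-like (Ma06_g06180, distance 0.22) and the cytochrome P450 CYP73A100-like (Ma03_g05380, 0.29). A haloacid dehalogenase-like hydrolase (Ma08_g33890, 0.42) and an alcohol dehydrogenase (Ma08_g29910, 0.44) followed. Closest to Ma09_g16600 were NAC domain-containing protein 72-like (Ma04_g19710, 0.19) and the two-on-two hemoglobin-3 (Ma07_g09620, 0.57). Next were the response regulator ARR8-like (Ma03_g08570, 0.68) and the copper transport protein CCH (Ma06_g18740, 0.71). Closest to Ma07_g25920 were a transmembrane emp24 domain protein (Ma08_g18200, 0.085) and kinesin-5-like (Ma09_g30720, 0.22). A CCCH zinc finger protein (Ma08_g26730, 0.37) and myb-like protein X (Ma07_g00760, 0.39) followed. The distance was 5.05 between the GS genes, 3.43 between Ma01_g15700 and Ma07_g25920, and 1.98 between Ma09_g16600 and Ma07_g25920. With 4 points per profile and counts that may be divided with a partner behind both GS genes, these distances describe the libraries only.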

How the data were processed

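Libraries were made from poly(A)-selected, fragmented RNA primed with random hexamers, per the labels' protocols, which state no strand-marking step. BWA and Bowtie are named in the submitters' processing notes. Counting tool, build and annotation are not given in the sources used. Each library's deposited list gives an expected count and an FPKM value per gene, per the file headers. The authors' deposited tables, 1 per tissue and filtered, add a log2 ratio with its p-value and FDR. Those p-values compare 1 library with another and were not used. A gene missing from a library's list was read as 0. Of 31873 gene IDs 0 matched the RefSeq gene table of the Cavendish Baxijiao assembly, so no coordinates or sequences are given.

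Expected counts were rounded to whole numbers, scaled by library totals and compared as ratios with exact 95% Clopper-Pearson intervals (SciPy 1.17.1, Python 3.11.15); ratios of ratios used the exact conditional odds ratio. The size call was a log2 change of (FPKM + 1) of at least 1 with at least 2 FPKM in the higher library. The functions were tested on simulated data. The 3 genes, the 6 gene lists and the 3 marker lists were chosen with earlier results of these data known. Named from each list were the 2 genes of highest mean FPKM, and for each gene of interest the 4 nearest profiles. Alternatives were 4 scalings, the ratio of FPKM, pseudocounts of 0.1 and 5, other filters and a log2 limit of 2; sums with inferred fragment-sharing partners were added after seeing the data.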

Additional observations from a re-analysis of the deposited data

Results flagged for a closer look

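The share of Ma09_g16600 in the summed FPKM of the 2 GS genes of interest differed in direction between tissues, by -10.5 percentage points in low-N minus normal-N leaf and by 13.0 points in low-N minus normal-N root. With each gene summed with its inferred partner the differences were 0.23 points in leaf and 5.64 points in root, so the opposite directions did not stand on that basis. Phenylalanine ammonia-lyase Ma01_g04420 had a low-N over normal-N ratio of 2.34 in leaf and 0.88 in root. ATP-citrate synthase Ma08_g06070 had 0.31 in leaf and 1.12 in root. With 1 library per group, none of these differences between tissues was tested.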

How the results depend on the processing

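No called fold of Ma01_g15700, Ma09_g16600 or Ma07_g25920 changed direction under any alternative run. Values outside the main counting interval were as follows. Leaf over root under normal N, Ma09_g16600 was at a ratio of 1.98 with median-ratio and 1.82 with upper-quartile scaling, and Ma07_g25920 at 0.58 with median-ratio scaling, 0.53 with upper-quartile scaling, 0.44 without the 10 highest genes and 0.47 with equal FPKM totals. Leaf over root under low N, Ma07_g25920 was at 0.53 with median-ratio, 0.53 with upper-quartile scaling and 0.51 with equal FPKM totals. Low N over normal N, Ma07_g25920 was at 0.41 in leaf with median-ratio scaling and 0.46 in root with equal FPKM totals, and its root ratio was 1.09 of its leaf ratio with median-ratio scaling. With a pseudocount of 5, Ma07_g25920 was no longer called by size in leaf (log2 change -0.93) or for leaf over root under low N (-0.98).

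Summed with its inferred partner, Ma01_g15700 had a ratio of 0.18 for low N over normal N in root and 0.050 for leaf over root under normal N. Ma09_g16600 summed with Ma03_g08980 had 0.67 for low N over normal N in leaf, 95.1 for leaf over root under low N and 40.9 under normal N. The share of the Ma09_g16600 pair was then 99.3% in low-N leaf, 99.1% in normal-N leaf, 17.3% in low-N root and 11.6% in normal-N root. On expected counts, not per length, the share of Ma09_g16600 in normal-N root was 17.0%.

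Counts over all genes moved with the thresholds. In low-N leaf, 2537 genes were higher and 1454 lower, against 1026 and 593 with a pseudocount of 5, 1388 and 778 with a filter of 10 FPKM, and 426 and 272 with a log2 limit of 2. The lower count in leaf was 2271 with median-ratio scaling. In low-N root, 1144 were higher and 1690 lower, against 341 and 680 with a pseudocount of 5, 491 and 852 with a filter of 10 FPKM, and 185 and 393 with a log2 limit of 2. Leaf over root, the limit of 2 gave 3044 higher and 5336 lower under low N, and 2806 higher and 5910 lower under normal N. No paired analysis was possible because each group has 1 library. Depth limits the leaf values of Ma01_g15700, which rest on 21.8 and 25.2 fragments.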
